A study of Homo sapiens with 30 samples.

Results

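Chromatin accessibility was compared between LNCaP cells treated with 0.1 nM and with 0.03 nM R1881, the upper and lower ends of the low-dose range used in that line. The comparison rests on 6 of the 30 libraries of the series, 3 at each dose, each numbered replicate 3, 4 and 5, and values below are given in that order. LNCaP is an established human prostate cancer line of luminal epithelial type that responds to androgen, and R1881 (methyltrienolone) is a synthetic androgen that is little metabolised. Before treatment the cells were kept for 48 h in 8% serum stripped of steroids with charcoal, and R1881 was then present for 24 h. The other LNCaP groups used here differed only in what was added for those 24 h: vehicle, 0.06 nM or 10 nM R1881, again 3 libraries each. VCaP, a second androgen-responsive prostate cancer line, enters at the end, also after 24 h with vehicle or R1881. The assay was Omni-ATAC-seq, in which the Tn5 transposase cuts open DNA and adds sequencing adapters, and each library is represented by its list of peaks. The labels do not say whether replicates were separate cultures, so p-values measure the spread between these libraries, which may be technical.

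The androgen receptor is a nuclear receptor that is held in the cytoplasm until it binds hormone, and then dimerises on response elements, mostly far from promoters, with the pioneer factor FOXA1 as a common partner. Its binding opens or widens nucleosome-free DNA at enhancers of genes such as KLK3 and FKBP5, while other sites lose accessibility. In prostate cancer lines, growth rises at low androgen and falls again at high androgen, and the LNCaP libraries of the series run from vehicle to 10 nM R1881.

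A list entry is a peak summit. Each of the 6 lists was shortened to its 138666 strongest entries by −log10 p, the length of the shortest list, and each entry received its percentile rank, with 100 for the strongest. Windows of 501 bp were placed on the summits of the 6 lists, 228627 in all, on chromosomes 1 to 22 and X. The value of a window in a library is the rank of the entry covering its centre, and 0 where no entry does. The 123698 windows with an entry in at least 3 of the 6 libraries were tested, and they are called regions below. A difference between groups is in percentile points, and it describes an entry's place within its own list and not an absolute signal.

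Few of the regions that differed reached a promoter. Of 22199 stretches of 250 bases directly upstream of an annotated start, 12036 were overlapped by at least 100 bp by a tested region. Of these, 6 promoters of 5 genes were overlapped by at least 100 bp by a region higher at 0.1 nM, and 8 promoters of 8 genes by a region lower at 0.1 nM. The 4 printed here, 3 with a higher and 1 with a lower region, are among those whose region was called under all 3 ways of joining entries to windows (an entry covering the centre, an overlap of 1 bp, or a summit inside). They are not typical of these in their motifs. The others called so are OR51A4, FAM184A, NBEA and ZNF573, which hold none of the motifs marked below, and RAB6C, which holds a TATA box. The printed stretches were read from RefSeq promoters on GRCh38.p14, 5′ to 3′. Capitals mark a TATA box (TATAAA) in PGC, an AP-1 site (TGANTCA) in EXPH5 and the 6-base core of an androgen response element (AGAACA, here as its reverse complement) in MXRA7, and GPATCH2L holds none of these. 
PGC promoter: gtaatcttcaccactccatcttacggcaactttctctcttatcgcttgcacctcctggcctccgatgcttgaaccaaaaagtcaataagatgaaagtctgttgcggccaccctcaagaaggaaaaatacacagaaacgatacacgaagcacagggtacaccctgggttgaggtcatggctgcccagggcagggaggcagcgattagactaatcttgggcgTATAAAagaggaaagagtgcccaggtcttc
EXPH5 promoter: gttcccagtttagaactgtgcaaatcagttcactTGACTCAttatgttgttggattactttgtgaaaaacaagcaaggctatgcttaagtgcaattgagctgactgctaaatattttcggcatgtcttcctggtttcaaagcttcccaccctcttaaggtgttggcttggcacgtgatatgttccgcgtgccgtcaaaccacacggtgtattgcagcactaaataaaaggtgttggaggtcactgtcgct
GPATCH2L promoter: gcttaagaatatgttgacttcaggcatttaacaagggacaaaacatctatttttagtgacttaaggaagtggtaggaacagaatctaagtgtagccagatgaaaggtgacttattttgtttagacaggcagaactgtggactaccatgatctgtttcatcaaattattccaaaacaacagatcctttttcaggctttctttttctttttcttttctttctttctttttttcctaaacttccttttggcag
MXRA7 promoter: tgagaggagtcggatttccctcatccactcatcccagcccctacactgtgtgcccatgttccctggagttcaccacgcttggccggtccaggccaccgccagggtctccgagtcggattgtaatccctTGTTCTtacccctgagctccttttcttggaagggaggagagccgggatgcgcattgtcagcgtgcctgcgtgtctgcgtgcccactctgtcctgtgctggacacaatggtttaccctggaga
The PGC stretch lies at chr6:41747398-41747647 on the minus strand, and PGC encodes the aspartic protease progastricsin. The region over it stood at 63.4, 65.2 and 44.7 in the 0.03 nM libraries and at 90.7, 92.5 and 88.4 in the 0.1 nM libraries (limma adjusted p = 0.00943), so the site was listed at both doses and was stronger at the higher. EXPH5, which encodes a Rab27 effector, has its stretch at chr11:108538178-108538427 on the minus strand. Its region stood at 13.4, 28.5 and 21.0 at 0.03 nM and at 50.2, 62.0 and 61.6 at 0.1 nM (limma adjusted p = 0.0355). The GPATCH2L stretch, at chr14:76154104-76154353 on the plus strand, had an entry in 1 of the 3 libraries at 0.03 nM, with ranks of 0, 3.31 and 0, and in all 3 at 0.1 nM, with 49.9, 53.1 and 44.3 (limma adjusted p = 0.00843). MXRA7, a matrix-remodelling-associated gene, went the other way at chr17:76709559-76709808 on the minus strand. Its region stood at 34, 21.6 and 36.1 at 0.03 nM and had no entry in any 0.1 nM library (limma adjusted p = 0.0094). The motifs also occur elsewhere: searched on both strands, AGAACA occurs in 9.84% of 22199 such promoters, TATAAA in 9% and TGANTCA in 5.36%, and in 6.31%, 4.6% and 3.27% of the 12036 promoters overlapped by a tested region, and the full palindromic androgen response element, which contains the 6-base core at each end, occurs in none of these promoters. A match is a description of letters and not of a bound site.

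List lengths and the median fold enrichment overlapped between the 2 groups of libraries, while the number of strong entries and the peak width did not. Lists held 139223 to 180695 entries at 0.03 nM and 142082 to 211664 at 0.1 nM (exact permutation p = 0.6, two-sided, n = 3 against 3, where 0.1 is the smallest p possible). The median fold enrichment was 3.69, 4.04 and 2.71 at 0.03 nM and 5.59, 4.01 and 4.13 at 0.1 nM (exact permutation p = 0.2). Entries whose −log10 q reached 5 were more frequent in every 0.1 nM library, 99554 to 138267 against 72635 to 87075 (exact permutation p = 0.1), and the median peak was wider, 464 to 538 bp against 422 to 456 bp (exact permutation p = 0.1). The part of these differences between libraries in the results below was not tested. Spearman's rho of ranks over regions was 0.792 to 0.870 for the 6 pairs of libraries within a dose and 0.744 to 0.806 for the 9 pairs between doses. The number of reads is unknown from peak lists. The background pileup solved from the entries, a measure of relative depth, was 3.61 to 5.11 at 0.03 nM and 3.12 to 5.05 at 0.1 nM.

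More sites ranked higher at 0.1 than at 0.03 nM than ranked lower. With limma over the 15 LNCaP libraries and a Benjamini-Hochberg adjusted p under 0.05, 3485 of the 123698 regions differed (2.82%), of which 3051 were higher at 0.1 nM (2.47%) and 434 lower (0.351%). Their median differences were 46.5 points for the higher and −36.5 points for the lower, beside 0.208 points over all regions tested. In each of the 3485 regions the 3 libraries of 1 dose all lay above the 3 of the other, an order found in the upward direction in 13.0% and in the downward direction in 7.94% of all regions. The number of calls depended on how the spread was estimated: with the 6 compared libraries alone limma called 168 higher (0.136%) and 20 lower (0.0162%), while all 3485 regions had an unadjusted p under 0.05 there, as did 14.3% of all regions. A group with no entry in any of its libraries adds no spread and can lower the estimate shared by the 15 libraries. Among the higher regions, vehicle had no entry at 74.5% and the 0.03 nM group at 51.2%. How much this added to the calls was not tested. Without 0.1 nM replicate 3, 4 or 5 the higher calls numbered 920, 869 and 2014 and the lower calls 98, 73 and 182. Without 0.03 nM replicate 4 they numbered 1833 and 210, and without 0.03 nM replicate 5 the higher calls numbered 1967. With the replicate number as a block, 3833 regions were higher and 655 lower, and with log2 fold enrichment in place of ranks, at regions with an entry in all 6 libraries, 471 were higher and 157 lower.

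Many of the higher regions were entries found at 0.1 nM only. No 0.03 nM library had an entry at 1562 of the 3051 (51.2%). Such regions passed the filter of 3 entries in 6 libraries only through the 0.1 nM group, so all 3 libraries at 0.1 nM had an entry by construction, and the count is no support for the difference. Another 539 (17.7%) of the higher regions had an entry in all 6 libraries, compared with 60.1% of all regions tested. Over all tested regions, 4749 had an entry in every 0.1 nM and in no 0.03 nM library, and 688 showed the opposite. The lists end at a −log10 p of 2 or at the common length, so a region without an entry may hold weaker signal. This cut differed between libraries. The last entry kept had a −log10 p of 2.32, 3.12 and 6.65 at 0.1 nM. At 0.03 nM it was at most 3.06. In 0.1 nM replicate 5, entries under 6.65 therefore counted as 0, while entries as weak were kept in the other libraries. With all entries as deposited, 3700 regions were higher and 187 lower. How many regions lack an entry at 0.1 nM through the cut was not tested. The lower regions were different in make-up: 177 of the 434 (40.8%) kept an entry in all 6 libraries, and 111 (25.6%) had none at 0.1 nM.

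**Figure D1:**
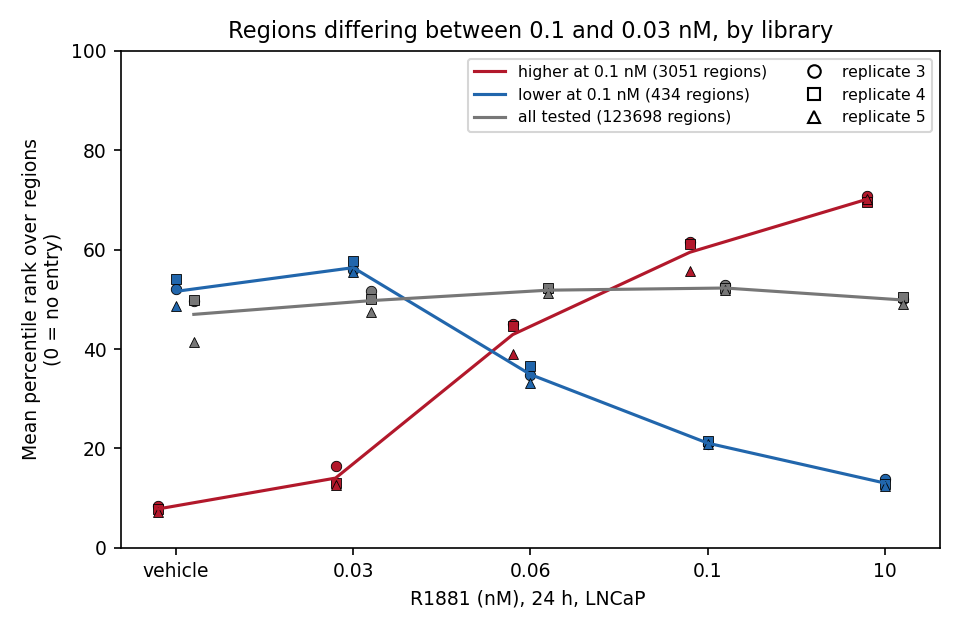
Mean percentile rank (vertical axis, 0 to 100) over 3051 regions higher at 0.1 nM, 434 lower regions and all 123698 tested regions, for each LNCaP library (symbols by replicate number) in 5 dose groups (horizontal axis, categories), with lines through group means. The difference between 0.03 and 0.1 nM chose the regions, and the vehicle, 0.06 and 10 nM libraries entered the choice through the shared estimate of the spread.

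The levels of the other LNCaP groups are given as a description, since the spread within those groups entered the fit that called the regions. In the higher regions the median of group means was 0 in vehicle, 0 at 0.03 nM, 43.2 at 0.06 nM, 57.5 at 0.1 nM and 73.6 at 10 nM. In the lower regions it was 60.4, 55.3, 32.3, 7.32 and 0. The intermediate dose, 0.06 nM, lay strictly between both doses in 2778 of the higher (91.1%) and 355 of the lower regions (81.8%). A wide gap between the 2 doses, for which the regions were chosen, itself makes such a position more frequent. The mean at 10 nM was at or above that at 0.1 nM in 2622 of the higher regions (85.9%), beside 40.5% of all tested, and was below it in 429. Vehicle cells had no entry in any library at 2274 of the higher regions (74.5%, beside 11.1% of all tested).

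The contrast of 10 nM with vehicle shares no library with that of 0.1 with 0.03 nM. It was called higher at 2859 of the 3051 regions (93.7%, background 15.5%) and lower at 7 of them. Of the 434 regions that were lower at 0.1 nM, 303 were also lower at 10 nM against vehicle (69.8%, background 11.8%) and 2 were higher. Fitting the 10 nM and vehicle libraries alone gave 2798 (91.7%, beside 13.4% of all tested) and 283 (65.2%, beside 8.99%). The spread within the 10 nM and vehicle groups had entered the choice of the regions, which this refit does not undo, so these shares remain a description. Vehicle replicate 5 had an entry at 63.6% of the tested regions and vehicle replicates 3 and 4 at 79.4% and 80.1%, and without it the share of higher regions called was 92.2%. Across all tested regions Pearson's r between the 2 differences was 0.645, given as a description over regions, which are not independent. The 2 remaining LNCaP contrasts that use no 0.03 or 0.1 nM library lay on the same side: 0.06 nM was called higher than vehicle at 1692 of the higher regions (55.5%, background 7.04%), and 10 nM higher than 0.06 nM at 1163 (38.1%, background 2.63%). They share libraries with each other and with 10 nM against vehicle, and so are not separate evidence. For the lower regions, 98 were lower at 0.06 nM than in vehicle (22.6%, background 0.544%) and 169 lower at 10 nM than at 0.06 nM (38.9%, background 4.55%).

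**Figure D2:**
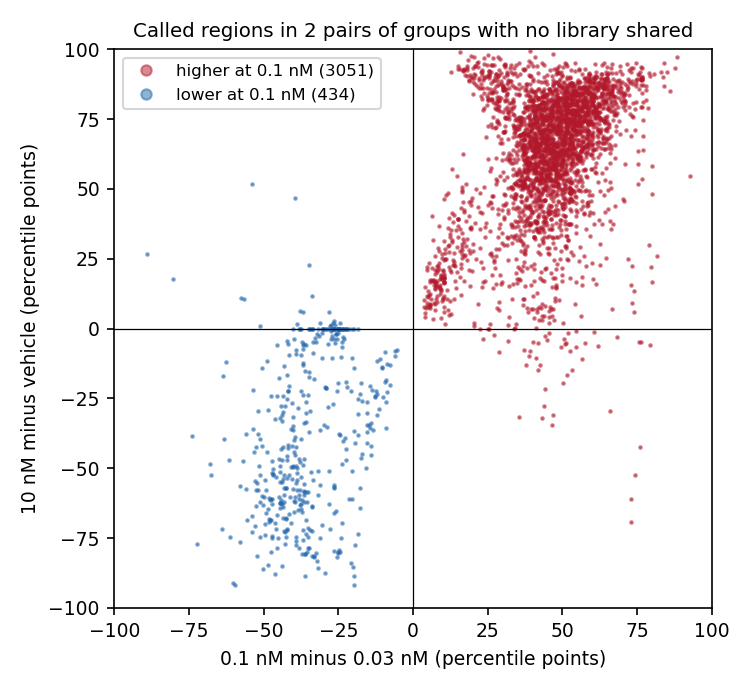
Difference between 0.1 and 0.03 nM (horizontal, percentile points) and between 10 nM and vehicle (vertical, percentile points) for each of the 3051 higher and 434 lower regions, 1 point per region. Of the higher regions 3001 have a positive vertical value and 47 a negative one, and the lower regions include 371 with a negative value.

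Among androgen-induced genes, 18 of the 53 measured had at least 1 region higher at 0.1 nM and 2 had a lower one, where 11.7% and 1.83% of the 17571 genes with a tested region did. Genes were not matched for their number of tested regions, and a gene with more of them has more chances of a call. In this list 23 of 685 regions were higher (3.36%, beside 2.47% of all regions) and 2 lower (0.292%, beside 0.351%), and the median difference was 1.96 points beside 0.208 over all regions. FKBP5, the co-chaperone that restrains steroid receptors and is a classic androgen target, carried 4 higher regions out of 17. The largest lay inside the gene at chr6:35722371-35722871. It had no entry in the 3 vehicle or the 3 libraries at 0.03 nM, stood at 74.2, 73.7 and 42.6 at 0.06 nM and at 92.4, 93.9 and 78.9 at 0.1 nM, and reached 97.3 ± 0.339 (SD, n = 3) at 10 nM. The difference of 88.4 points (SE 8.45, limma adjusted p = 0.000126) had a limma adjusted p of 0.0307 with the 6 libraries alone. Of the 70 named regions that were called, 14 passed in that smaller fit and 56 did not, with limma adjusted p up to 0.228. A second FKBP5 region, at chr6:35610802-35611302, was already listed at the low dose, at 56.2, 67.1 and 67.7, and stood at 91.1, 91.1 and 87.4 at 0.1 nM (limma adjusted p = 0.00433). The other two FKBP5 regions went from means of 15.1 to 59.9 and from 0 to 37.3. At the FKBP5 start itself the mean ranks were 95.4 and 95.9 (limma adjusted p = 0.875), so the 4 higher regions lay within the gene, away from its start.

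KLK3 encodes prostate-specific antigen. Its region at chr19:50861020-50861520, 0.506 kb outside the gene body, had no entry in vehicle and stood at 63.5, 58.5 and 50.4 at 0.03 nM and at 85.4, 88.4 and 89.6 at 0.1 nM, a difference of 30.4 points (SE 4.81, limma adjusted p = 0.00422). At 0.06 nM its mean was 81.2 ± 4.54 (SD, n = 3), and at 10 nM 90.0. The site was therefore listed at the lowest dose, and its group means rose with each following dose. The libraries at 10 nM, at 89.5, 87.0 and 93.6, overlapped those at 0.1 nM, and 10 against 0.06 nM was not called (limma adjusted p = 0.345). KLK2, the neighbouring kallikrein, had a weaker region at chr19:50879876-50880376 with 39.9, 0 and 17.5 at 0.03 nM and 71.0, 62.0 and 47.1 at 0.1 nM (limma adjusted p = 0.0466, and 0.204 with the 6 libraries alone).

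Several androgen-induced genes had a region without any entry at 0.03 nM. IQGAP2, a scaffold of the cytoskeleton, stood at 68.2, 53.4 and 59.7 at 0.1 nM inside the gene at chr5:76496240-76496740, with 0, 0 and 1.01 at 0.06 nM (limma adjusted p = 0.00121 for 0.1 against 0.03 nM). STK39, a stress kinase, had a mean of 0.336 at 0.06 nM and 64.7, 57.4 and 27.8 at 0.1 nM (limma adjusted p = 0.0122), and HERC3 had 1.03 at 0.06 nM and 34.7 ± 12.7 (SD, n = 3) at 0.1 nM. EAF2, a partner of the ELL elongation factors, and VAPA, a membrane contact protein, had means of 48.1 and 51.0 at 0.1 nM. NDRG1 showed a smaller difference at a strong site: 80.2, 78.5 and 79.4 against 89.2, 87.9 and 93.1, 10.7 points (SE 1.80, limma adjusted p = 0.00603), at a region listed in vehicle at a mean of 68.2.

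Higher values were not always a dose gain over vehicle. PLPP1, a lipid phosphatase, stood at 0, 33.4 and 0 at 0.03 nM and at 56.4, 51.8 and 61.4 at 0.1 nM (limma adjusted p = 0.0268), while vehicle had a mean of 44.8 and 10 nM 51.0. PMEPA1, an inhibitor of TGF-β signalling, had a region with 22.6, 27.9 and 18.6 at 0.03 nM and no entry in the 12 other LNCaP libraries (limma adjusted p = 0.0213). This PMEPA1 region was not called under every way of joining entries. RAB4A, an endosomal GTPase, had 1 higher region, from 21.2 to 65.2, and 1 lower among 21.

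**Figure D3:**
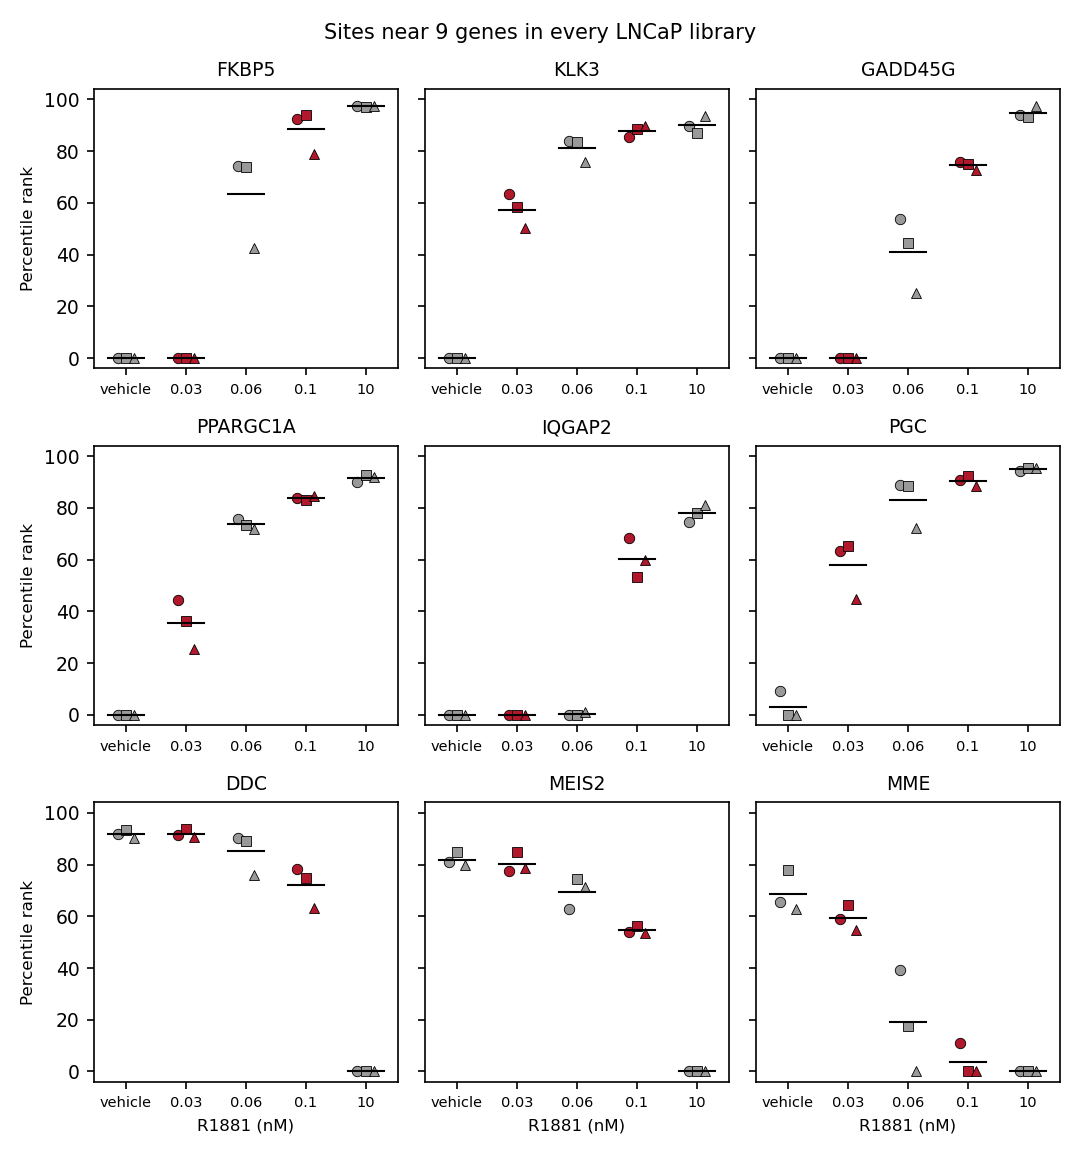
Percentile rank (vertical, 0 means no entry) of 1 region near each of 9 genes in the 15 LNCaP libraries across 5 dose groups (horizontal, categories), with symbols for replicates 3 (circle), 4 (square) and 5 (triangle), the compared doses in red, and a bar at each group mean. FKBP5, GADD45G and IQGAP2 have no entry at 0.03 nM, KLK3, PPARGC1A and PGC have group means that rise with dose from 0.03 nM on, and DDC, MEIS2 and MME reach 0 at 10 nM.

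The largest rise of all was 92.7 points, 1.35 kb from CASZ1, a zinc finger factor, from 0, 0 and 6.22 to 95.1, 95.3 and 94.1 (limma adjusted p = 0.0399). The CASZ1 region was not called under every way of joining entries and was picked after its values were seen. The 10 largest rises among regions called under all 3 ways, 1 per gene, had no entry at 0.03 nM. After FKBP5 came KLHL42, an adaptor of a cullin ubiquitin ligase, with 86.2, 84.7 and 84.6 at 0.1 nM at a site 62.3 kb away (limma adjusted p = 1.72e-05), and DPP6, a potassium channel subunit, with 86.4, 87.8 and 78.3 inside the gene (limma adjusted p = 1.72e-05). Both had 0 in vehicle and means of 75.4 and 77.5 at 0.06 nM. RGS6, which ends G-protein signals, reached 78.9 ± 0.817 (SD, n = 3), CHD8, a chromatin remodeller, 78.0 ± 6.27, GPALPP1 78.0 ± 1.76 and RAPGEF6, a Rap activator, 77.9 ± 2.86. These 4 had no vehicle entry and means of 63.2 to 68.7 at 0.06 nM. A region 11.3 kb from LEP, the leptin gene, stood at 75.7, 86.0 and 74.3 with a lower mean of 38 at 0.06 nM (limma adjusted p = 0.00576). The other two of the 10, near PER2 and BPIFA1, had entries in vehicle.

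At PER2, a circadian clock repressor, a region inside the gene stood at 80.5, 80.1 and 79.5 at 0.1 nM and at 0 in the 3 libraries at 0.03 nM (limma adjusted p = 0.0132). Vehicle stood at 0, 81.7 and 83.6, so vehicle replicate 3 had no entry either. More widely, the vehicle mean was over 20 points above the 0.03 nM mean at 115 of the 3051 higher regions (3.77%, beside 4.51% of all tested). A stricter count took regions with no entry in any 0.03 nM library and an entry in all 12 other LNCaP libraries. There were 41, of which 23 were called higher, and 27 had no entry even in the full deposited 0.03 nM lists. The same count was 1 for 0.06 nM and 0 for 0.1 nM, and, in the direction of the dose, 1104 for vehicle and 574 for 10 nM. Windows were placed on 0.03 and 0.1 nM summits, so the counts of the other groups are not like for like. At 3 of the 41 the other 12 libraries all stood at 50 or more: near BPIFA1, an airway surface protein, at 74.7 to 88.2, near ATP5MC3, a subunit of ATP synthase, at 72.5 to 84.3, and inside CUX1, a homeodomain factor, at 54.2 to 77.2. The BPIFA1 region, at chr20:33262547-33263047, had a limma adjusted p of 1.77e-06 for 0.1 against 0.03 nM and of 0.36 for 10 nM against vehicle. ATP5MC3 and CUX1 were picked after their values were seen, and what sets the 0.03 nM libraries apart there was not tested.

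**Figure D4:**
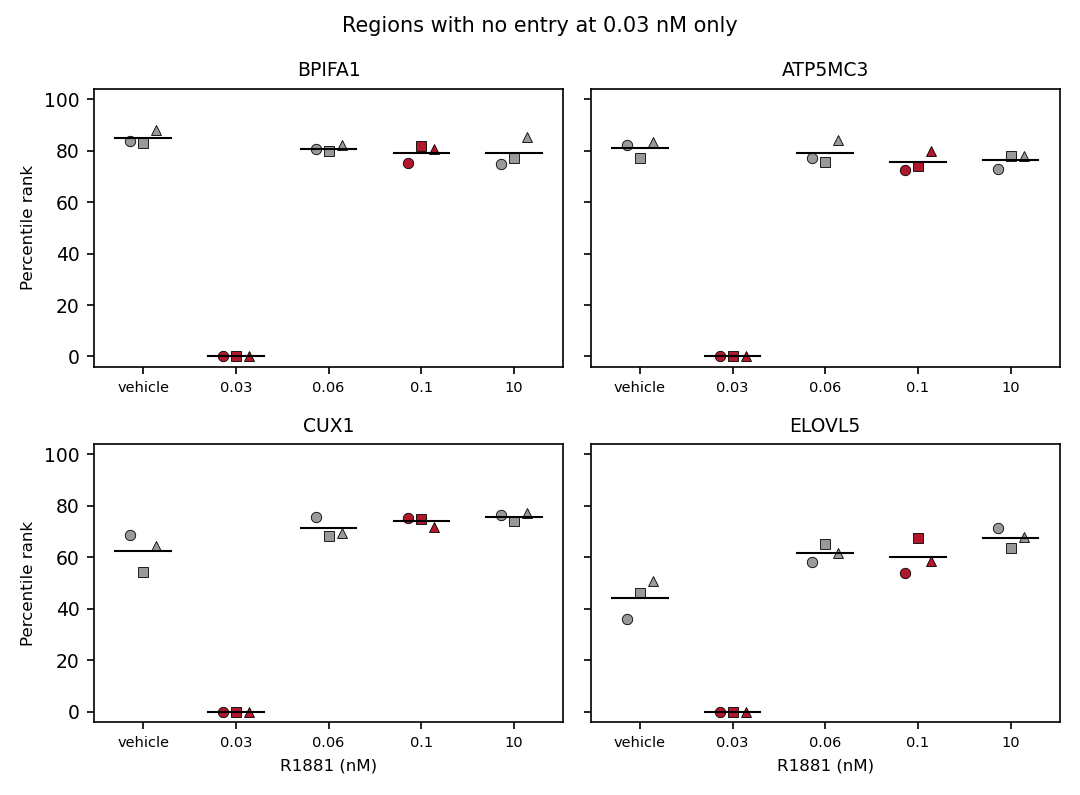
Percentile rank (vertical) in the 15 LNCaP libraries by dose group (horizontal, categories) at 4 of the 41 regions with no entry in any 0.03 nM library and an entry in all 12 others, symbols and bars as for the plot of 9 sites. ELOVL5 is shown beside BPIFA1, ATP5MC3 and CUX1, and its other 12 libraries lie between 36.0 and 71.4.

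The largest difference among the 434 lower regions was −89.1 points, inside OXCT1, a ketone body enzyme, from 89.2, 91.4 and 87.0 to 0, 0 and 0.26, with a mean of 86.6 at 10 nM (limma adjusted p = 0.0164). The OXCT1 region was not called under every way of joining entries and was picked after its values were seen. The 10 largest falls among regions called under all 3 ways, 1 per gene, started from means of 54.0 to 69.2 and had means of 0 to 11.8 at 0.1 nM. PRDM6, a transcriptional repressor of smooth muscle, had 71.4, 67.1 and 69.1 at 0.03 nM and 0, 0 and 15.3 at 0.1 nM inside the gene at chr5:123113058-123113558, −64.1 points (SE 8.99, limma adjusted p = 0.00203), from 71.8 in vehicle to 0 at 10 nM. NQO1, a quinone reductase, went from 68.6, 65.1 and 62.1 to 0, 0 and 11.2 (limma adjusted p = 0.0364). CBLB, a ubiquitin ligase, went from 64.0, 75.1 and 67.7 to 0, 31.0 and 2.10 (limma adjusted p = 0.00437). In these regions the 0.1 nM libraries differed more among themselves than the 0.03 nM libraries did. MME, which encodes the membrane peptidase neprilysin, stood at 59.1, 64.3 and 54.7 against 11.1, 0 and 0 (limma adjusted p = 0.0095), with 19.0 at 0.06 nM. VIL1, the actin bundler villin, STC1, the hormone stanniocalcin-1, CNGB3, a cone channel subunit, TEKT3, a sperm tektin, KIAA1217 and LOC124901637 completed the 10, with differences from −57.1 to −53.2 points. All 10 had a vehicle mean of at least 39.3 and a 10 nM mean of at most 2.98, and none of them passed with the 6 libraries alone, where the smallest limma adjusted p was 0.0649.

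Of 19 androgen-repressed genes measured, 3 had a higher region and 1 a lower one, 3 and 1 of 258 regions (1.16% and 0.388%, beside 2.47% and 0.351% of all regions), with a median difference of −0.507 points. The lower one was at DDC, dopa decarboxylase, inside the gene at chr7:50489541-50490041. It stood at 91.3, 93.6 and 90.7 at 0.03 nM, equal in mean to the 91.9 of vehicle, and at 78.4, 74.8 and 63.4 at 0.1 nM, −19.7 points (SE 4.76, limma adjusted p = 0.0385), and had no entry at 10 nM. The 3 higher ones opened from 0: IGF1R, the IGF-1 receptor, to 53.4 ± 19.2, BCL2, the inhibitor of apoptosis, to 49.1 ± 12.4, and MET, the HGF receptor, to 45.7 ± 8.51 (SD, n = 3; limma adjusted p = 0.0294, 0.0418 and 0.0479).

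Of 32 luminal transcription factor genes, 4 had a higher and 3 a lower region. These were 9 and 3 of 408 regions (2.21% and 0.735%, beside 2.47% and 0.351% of all regions), and the median difference was 0.229 points beside 0.208. GATA3, a luminal lineage factor, had 3 of 8 regions higher. The named one went from 20.1, 0 and 0 to 55.5, 57.4 and 51.7 (limma adjusted p = 0.0189). NFIC, a CTF/NF-I factor, had a strong region that went from 90.2, 86.1 and 83.6 to 94.1, 95.1 and 96.7, 8.69 points (limma adjusted p = 0.0136). Its relative NFIB had the opposite, from 32.7, 43.8 and 34.9 to 0, 0 and 2.10 (limma adjusted p = 0.0129), with vehicle at 33.9 and 0 at 0.06 and 10 nM. MEIS2, a partner of HOX proteins, went from 77.4, 84.7 and 78.7 to 54.0, 56.3 and 53.5 (limma adjusted p = 0.0203), and to 0 at 10 nM.

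Some nuclear receptor genes had sites that ranked higher. Of 14 steroid and related nuclear receptor genes, 3 had a higher and none a lower region, 4 of 250 regions (1.60%), which is below the 2.47% of all regions. PGR, the progesterone receptor, had no entry at 0.03 nM and stood at 55.9, 56.3 and 49.2 at 0.1 nM inside the gene at chr11:101092981-101093481 (limma adjusted p = 0.00224). RARB, a retinoic acid receptor, went from 0, 0 and 2.25 to 47.6, 62.7 and 66.7 (limma adjusted p = 0.00179), and THRB, a thyroid hormone receptor, from 0 to 54.4 ± 8.85 (SD, n = 3). Among 25 androgen receptor coregulators 3 had a higher and 1 a lower region, 3 and 1 of 306 regions (0.98% and 0.327%, beside 2.47% and 0.351% of all regions). They were CREBBP, an acetyltransferase, from 0 to 58.9, 61.0 and 44.5 (limma adjusted p = 0.0057), and the SUMO ligases PIAS2, from 0 to 63.2, 71.0 and 44.0, and PIAS1, from 43.3, 5.74 and 0 to 73.7, 76.4 and 70.6. CREBBP also held the lower region of that list.

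The called regions of the metabolic lists came in about the share of all regions. In the lipid and sterol list, 7 of 32 genes had a higher region and none a lower one, 8 of 299 regions (2.68%), near the 2.47% of all regions. ELOVL6, a fatty acid elongase, went from 0, 0 and 29.5 to 72.4, 79.8 and 74.0 (limma adjusted p = 0.00261). ABCA1, the cholesterol exporter, went from 0 to 45.8, 37.7 and 26.7 and was at 10.4 at 10 nM. In the glycolysis and mitochondria list 3 of 21 genes had a higher region, 5 of 198 (2.53%). PPARGC1A, the coactivator of mitochondrial biogenesis, had 3 of 35. The named one, 23.9 kb from the gene, stood at 44.5, 36.1 and 25.2 and then at 83.6, 82.9 and 84.7, 48.5 points (SE 5.80, limma adjusted p = 0.000687, and 0.0421 with the 6 libraries alone). Its homologue PPARGC1B went from 0 to 59.0 ± 6.48, and SLC2A12, a glucose transporter, from 0 to 53.3 ± 13.5 (SD, n = 3).

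In androgen metabolism 3 of 23 genes had a higher region, 3 of 105 regions (2.86%, beside 2.47% of all regions). SRD5A1 and SRD5A2 encode the 5α-reductases that turn testosterone into dihydrotestosterone. SRD5A1 stood at 83.9, 85.8 and 83.8 and then at 93.6, 94.2 and 92.7 (9.01 points, SE 1.29, limma adjusted p = 0.00242), and SRD5A2 at 0 and then at 48.7, 64.1 and 67.4 (limma adjusted p = 0.00171). HSD17B2, which oxidises testosterone, went from 0 to 65.1, 54.7 and 41.5 (limma adjusted p = 0.017). ODC1, the first enzyme of polyamine synthesis, was the single gene of 11 in its list, from 0, 0 and 20.2 to 51.0, 65.3 and 55.8 (limma adjusted p = 0.00722), and ATF6, a sensor of unfolded protein, the single one of 16 in its list, from 25.9 ± 17.8 to 65.2 ± 7.45 (limma adjusted p = 0.0487). These were 1 of 85 regions (1.18%) and 1 of 120 (0.833%), both below the 2.47% of all regions. The median differences of the 2 lists were −0.81 and −0.768 points.

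Among 45 cell cycle genes, 3 had a higher and none a lower region, 4 of 196 regions (2.04%, beside 2.47% of all regions), with a median difference of 0.0127 points. CDK1, the mitotic kinase, had a region 22.6 kb away that went from 0 to 63.4, 46.7 and 42.7 (limma adjusted p = 0.0131), but it was not called under every way of joining entries. CDK6, a G1 kinase, went from 78.5, 83.6 and 83.5 to 91.0, 91.4 and 89.9 (limma adjusted p = 0.0189), and CENPF, a kinetochore protein, from 0, 25.7 and 0 to 60.03, 71.0 and 43.8 (limma adjusted p = 0.0193). Of 20 cell cycle inhibitors, 2 had a higher and 1 a lower region, 2 and 1 of 145 regions (1.38% and 0.69%, beside 2.47% and 0.351% of all regions). Both are stress-induced growth arrest genes. GADD45G had no entry in vehicle or at 0.03 nM at chr9:89621581-89622081, 15.3 kb from the gene, stood at 41.1 at 0.06 nM, at 75.9, 74.9 and 72.7 at 0.1 nM and at 94.9 at 10 nM (74.5 points, SE 8.22, limma adjusted p = 0.000415), and held the lower region of the list as well. GADD45B went from 44.5, 0 and 0 to 79.1, 72.2 and 71.9 (limma adjusted p = 0.00658).

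Some regulators of this system had no called region. TMPRSS2, the androgen-driven protease of the common gene fusion, had its region of smallest p at 82.0, 83.8 and 82.2 against 88.6, 88.7 and 88.6, groups that do not overlap, with a limma adjusted p of 0.0571. The named FOXA1 region, 0.469 kb from the gene, went from 44.6, 0 and 0 to 72.8, 79.1 and 61.9 (limma adjusted p = 0.0542), with 50.2 in vehicle. CCND1, cyclin D1, stood at 93.6, 94.9 and 94.0 against 90.7, 90.8 and 88.8 (limma adjusted p = 0.084), and TRPM8, a cold-sensing channel, at 37.4 and 5.11 (limma adjusted p = 0.27). SMOX, a polyamine oxidase, and UGT2B15, which glucuronidates androgens, had limma adjusted p of 0.502 and 0.657. A p that misses the threshold does not show that these regions were alike.

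**Figure D5:**
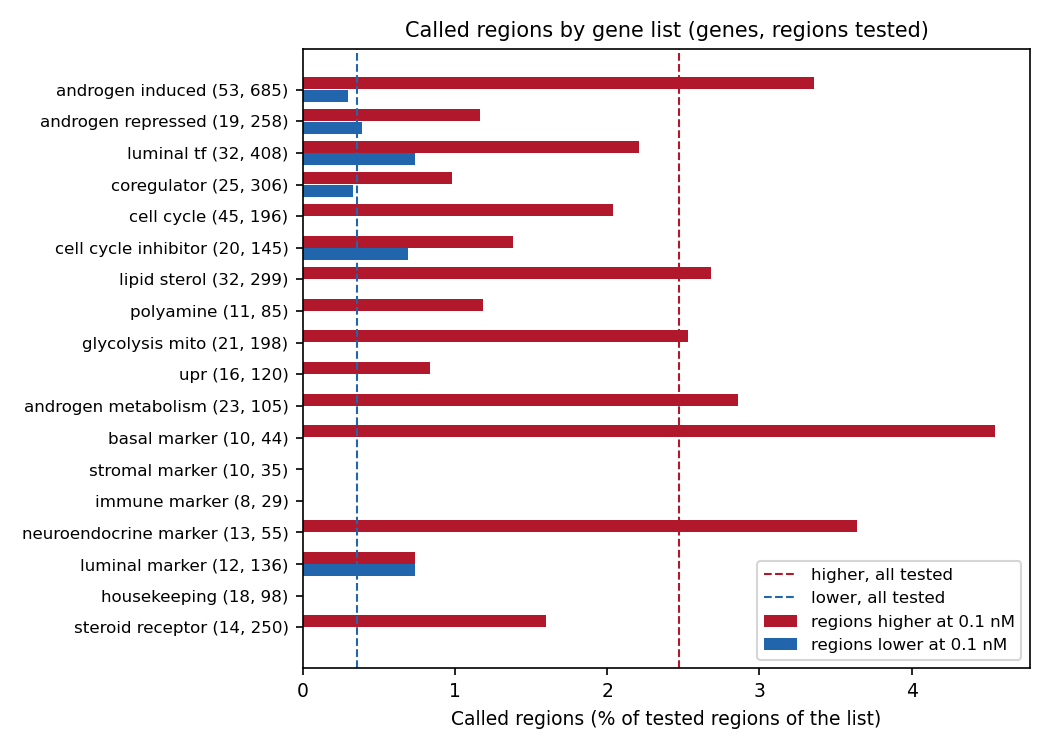
Share of each gene list's tested regions that was higher (red) or lower (blue) at 0.1 nM (horizontal axis, percent), for 18 lists with the numbers of genes and regions in brackets, and dashed lines at the shares over all tested regions, 2.47% and 0.351%. The androgen-induced list lies at 3.36% and the housekeeping, stromal and immune lists at 0; short lists rest on 1 or 2 regions.

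Markers of other cell types were listed in similar numbers at both doses. An entry within 1 kb of a gene end was found in each of the 6 libraries for all 18 housekeeping genes, 11 or 12 of 12 luminal markers, 12 or 13 of 13 neuroendocrine, 4 to 7 of the 10 basal markers, 4 to 7 of the 10 stromal markers and 4 to 7 of the 11 immune markers, and the ranges of both doses overlapped in each list. None of the 98 housekeeping, 35 stromal and 29 immune regions was called, and the housekeeping median difference was −0.881 points. In the luminal marker list 1 of 136 regions was higher and 1 lower (0.735% each, beside 2.47% and 0.351% of all regions). KLK3 had the higher region, and a region 68.8 kb from ACP3, prostatic acid phosphatase, was lower, from 81.4, 81.1 and 82.7 to 57.3, 67.8 and 52.0 (limma adjusted p = 0.0145). Basal and neuroendocrine markers had 2 higher regions each, of 44 and 55 (4.55% and 3.64%, beside 2.47% of all regions), counts too small to read as a result about these markers. They were at TP63, the basal p63 factor (limma adjusted p = 0.0475), at COL17A1, a hemidesmosome collagen that was listed in vehicle at 29.0 (limma adjusted p = 0.0354), near NKX2-1, a lung and thyroid factor (limma adjusted p = 0.00534), and at CHGB, chromogranin B (limma adjusted p = 0.00649).

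The called regions seldom lay close to gene ends. Of the higher regions 76 (2.49%) and of the lower 29 (6.68%) were within 1 kb of either end of a protein-coding gene, beside 14.8% of all tested. Inside gene bodies lay 49.9% of the higher, 52.5% of the lower and 53.7% of all regions, and beyond 100 kb of any gene 20.3%, 22.6% and 13.9%. Regions were assigned to the nearest gene body and are not shown to regulate it. Genes with most higher regions were ADGRV1, a giant adhesion receptor, with 6 of 57, and FSTL5, PRKG1 and ZNF385D with 5 each, all with many tested regions. FKBP5 had 4 of only 17.

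VCaP cells gave a comparison in another line. All 15 VCaP libraries entered 1 limma fit, 3 each after 24 h with vehicle or with 0.01, 0.03, 0.06 or 10 nM R1881. Their lists were shortened to 104726 entries and scored on the same windows. Windows with an entry in at least 3 of the 15 VCaP libraries were tested, so a window could pass through the 10 nM group alone. At regions tested in both lines, 10 nM against vehicle in VCaP was called higher at 1024 of 1915 regions that were higher at 0.1 nM in LNCaP (53.5%, background 5.92%) and lower at 2. Of 208 regions that were lower at 0.1 nM in LNCaP, 50 were lower at 10 nM in VCaP (24.0%, background 2.88%) and none was higher. The contrast of 10 nM with vehicle is not a low-dose step, so these shares are a description and do not test the LNCaP difference. The low doses of VCaP, 0.06 against 0.01 nM, gave 0 calls by limma among 94265 regions tested there (0%), with 6634 at an unadjusted p under 0.05.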

How the data were processed

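Each library is represented by 1 peak list, which the authors deposited; per the submitters' processing notes the build was GRCh38 and the tools were deepTools 3.5.1, MACS2 2.2.7.1, BWA 0.7.17 and Trimmomatic 0.39. In the deposited lists, column 7 is the fold enrichment, a ratio over local background, columns 8 and 9 are the −log10 p and −log10 q of each entry, and column 10 is the summit's offset. Lists were shortened to equal length, ranked by −log10 p and joined to windows with Python 3.11.15. The 15 LNCaP libraries entered 1 limma fit (version 3.58.1, R 4.3.3) with a mean for each of 5 groups and trended, robust variance. Tests were two-sided. The fit was also run on simulated ranks with a common mean for all groups apart from planted changes. That run does not show how the fit behaves where whole groups have no entry. Genes and promoters came from RefSeq on GRCh38.p14. Read depth is unknown, so no counting interval is given.

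Named regions are, first, the 10 with the greatest rise and the 10 with the greatest fall where groups did not overlap and the region was called under all 3 ways of joining (1 per gene), the called genes of each list by smallest p (up to 15 androgen-induced, 4 per other list) and 15 genes named in any case. Some named genes are not reported here. The members, the 18 lists and the rule were chosen with earlier results of these data known. Replicate numbers may pair the samples. Deviations from group means of same-numbered libraries correlated at 0.112, 0.101 and 0.261, those of different numbers at −0.173 to 0.08. Deviations cancel within a group, so a positive value for 1 pair of libraries pushes others down. The negative values are therefore not separate evidence of pairing. Any pairing is read from this check on the data and not from a stated batch, and the main fit did not use it.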

Additional observations from a re-analysis of the deposited data

How the results depend on the processing

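The direction of the contrast, more higher than lower regions, held under each setting run, while the number of calls did not. For all calls (3485), the higher (3051) and the lower (434), the counts were 5453, 5127 and 326 with entries of a −log10 q of at least 5; 147, 124 and 23 with an entry required in all 6 libraries, where fewer regions were tested; 628, 471 and 157 with log2 fold enrichment in the 6 libraries; 188, 168 and 20 with the 6 libraries alone; 1996, 1771 and 225 with the 9 low-dose libraries; and 1808, 1485 and 323 with the 50000 strongest entries. All entries as deposited gave 187 lower regions and normal scores 794. Where no value shows it, the cause was not tested. The replicate block gave 655 lower regions and 3833 higher. It made 3 of the 78 named regions called and lost none, but only 6 of the 78 had the same call under every setting run. Of the 70 that were called, the call was lost at 56 with the 6 libraries alone, at 62 without number 3, at 67 without number 4 and at 35 without number 5. Leaving out 1 library of either group gave 942 to 3418 calls, 869 to 3058 higher and 73 to 376 lower. Leaving out all libraries of 1 replicate number gave 25 to 1404, 21 to 1234 and 4 to 170, the lowest of each without number 4. The share of higher regions called at 10 nM against vehicle, 93.7%, ran from 42.9% (without number 4, where 21 regions were higher) to 96.2% when libraries were left out. Of the named regions, UGT2B15 reversed, from −4.02 points without number 3 to 0.288 without number 5, and was not called in either fit. The fits of 10 nM and vehicle alone and without vehicle replicate 5 were chosen after seeing the data. Peak lists give no depth and no signal below their threshold, so a rank of 0 is not absence, and ranks cannot show a change shared by all regions.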

Other observations

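The chromosomes differed in their share of higher regions, from 1.25% of 3606 tested regions on chromosome 19 to 3.21% of 2865 on chromosome X. The X chromosome had 92 higher and 3 lower regions. Chromosome 8 had the highest share of lower regions, 0.598% of 6190. These shares are given as values without a test.

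Regions assigned to 1 gene could differ in opposite directions, as at ADGRV1 and CSMD1, or in 1 direction only, as at ZBTB45 and EGFR. ADGRV1 had 6 higher and 2 lower regions of 57, CSMD1, a large complement-control protein, had 3 higher and 2 lower of 39, and ZBTB45, a zinc finger gene, had 3 lower and no higher of 5. EGFR, the epidermal growth factor receptor gene, had 3 higher regions of 38. These genes were picked after their values were seen.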
